A study of Mus musculus with 4 samples.

Results

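The 8 genes described here, Tgfb1, Tgfbr1, Tgfbr2, Smad3, Smad7, Pmepa1, Ski and Skil, belong to the transforming growth factor beta (TGF-beta) pathway and were taken by symbol. They are 8 of the 31017 gene symbols of the bone marrow matrices and of the 32245 of the tumor matrices, and all 8 were present in all 4 libraries. The question addressed was how their RNA levels in NK cells, T cells and myeloid cells compared between mice lacking S100a8 in blood-forming cells and their controls. S100a8 encodes a calcium-binding protein that neutrophils and monocytes make in large amounts and release in inflammation.

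Knockout mice (KO) were S100a8fl/flVav-Cre+/-, in which the floxed S100a8 gene is deleted by a Cre recombinase under the Vav promoter, active throughout the hematopoietic system. Control mice (WT) were S100a8fl/flVav-Cre-/-: they carried the same floxed alleles and no Cre. The sorted cells carried the leukocyte marker CD45 and came from LLC tumors (Lewis lung carcinoma, a transplantable mouse lung cancer line) and from marrow of mice without a tumor, with no treatment in any group. Cells of 3 mice were pooled for each single-cell RNA library (10x Genomics), which gave 1 library each of KO tumor, WT tumor, KO bone marrow and WT bone marrow. The marrow and tumor libraries came from different mice, and the age and sex of the mice were not given in the sources used here. With 1 library per group, no KO and WT difference below has a replicate check, and none was tested. The intervals given are 95% counting intervals of the UMIs (unique molecular identifiers, 1 per captured RNA molecule) and cover counting error only, not the spread between mice.

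TGF-beta is secreted in a latent form, and once released it binds a type II receptor that recruits and phosphorylates a type I receptor. The type I receptor phosphorylates SMAD2 and SMAD3, which enter the nucleus with SMAD4 and regulate target genes, among them genes for inhibitors that dampen the signal. In tumors the pathway is known for restraining T cells and NK cells and for shaping neutrophils, macrophages and dendritic cells.

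The libraries held 11836 barcodes in KO tumor, 12027 in WT tumor, 11070 in KO bone marrow and 8126 in WT bone marrow, and the median cell kept for analysis had 7876 UMIs in KO tumor, 6395 in WT tumor, 2734 in KO bone marrow and 2236 in WT bone marrow. S100a8, the deleted gene, had 85 UMIs in the KO tumor library against 14244 in the WT tumor library, and 7 UMIs in the KO bone marrow library against 2301866 in the WT bone marrow library. Cells were clustered within each tissue without these 8 genes, and clusters were named from marker genes. T and NK cells were clustered once more among themselves, and those clusters carry an L before their number. One tumor cluster of 1424 KO and 99 WT cells, cluster 3, led by Arg1, Cxcl3, Cxcl1, Inhba and Thbs1, had under 3 detected markers of its highest-scoring list and was left unnamed. Each level is given in CPM, the UMIs of a gene per 1000000 UMIs of the class outside S100a8, S100a9, mitochondrial, ribosomal protein and hemoglobin genes. A gene counted as measured in a class with at least 50 UMIs over both libraries. It counted as higher or lower when its KO over WT ratio, divided by the median ratio of all measured genes of the class, passed 1.5-fold.

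In the tumor with all cells, Tgfbr1 was the gene most often higher in KO, and Pmepa1, Tgfbr2 and Smad7 were the genes most often lower. Of 61 gene and class pairs measured over 8 tumor classes, 9 were higher and 10 were lower in KO. The counting interval of the ratio relative to the class median left out 1 in 7 and in 10 of them. In NK cells 1 gene was higher and 1 lower of 8, beside 14.5% of all measured genes past 1.5-fold either way. In T cells 1 of 8 was higher, beside 9.96% of all genes. In mature neutrophils 2 were higher and 2 lower of 7, beside 46.8% of all genes. In monocytes 1 of 8 was lower, beside 17.4%, and in macrophages 2 of 8 were higher, beside 12.8%. In cluster 3, 1 was higher and 1 lower of 7, beside 32.3%. In conventional type 2 dendritic cells (cDC2) 1 was higher and 2 lower of 8, beside 17.5%. In migratory dendritic cells 1 was higher and 3 lower of 7, beside 21.2%. Within the T cells, 1 of 8 genes was higher in CD8 T cells beside 13.4% of all genes, 1 of 8 in conventional CD4 T cells beside 16.3%, 0 of 8 in regulatory T cells beside 13.6%, and 1 of 7 in gamma-delta T cells beside 17.6%. Among the 8 classes, the share of the genes past 1.5-fold was farthest above that of all genes in migratory dendritic cells, and it was below it in monocytes and in cluster 3. The 3 lower calls in migratory dendritic cells did not hold without cells that carried T or NK marker UMIs. Nor did those of Smad7 in mature neutrophils, Tgfbr2 in cDC2 and Pmepa1 in monocytes (0.996, 0.842 and 0.753 relative to the class median). The lower calls of Pmepa1 in cDC2, Tgfbr2 in cluster 3 and Tgfb1 in mature neutrophils remained. Tgfbr1 in macrophages, cDC2 and mature neutrophils and Smad3 in mature neutrophils were no longer called higher, and Smad3 in cDC2 newly was.

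In bone marrow few of the genes passed 1.5-fold. Of 45 pairs measured over 9 classes, 4 were higher and 2 lower in KO. The counting interval of the ratio relative to the class median left out 1 in 3 and in 1 of them. None passed in NK cells (0 of 3, beside 13.4% of all genes), immature neutrophils (0 of 7, beside 7.67%), mature neutrophils (0 of 7, beside 15.9%) or basophils and mast cells (0 of 3, beside 14.7%). In granulocyte progenitors 2 of 5 were higher, beside 5.78% of all genes, in monocytes 1 of 7 was higher, beside 5.64%, and in macrophages 1 of 2 was higher, beside 18.9%. In T cells 1 of 5 was lower, beside 10.2%, and in plasmacytoid dendritic cells 1 of 6 was lower, beside 12.7%. The middle gene of each class lay between -0.35 (T cells) and 0.55 (macrophages, with 2 genes measured) on the log2 scale relative to the class median, and in the tumor between -0.30 (migratory dendritic cells) and 0.31 (macrophages), where the median of all genes is 0 by construction.

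**Figure D1:**
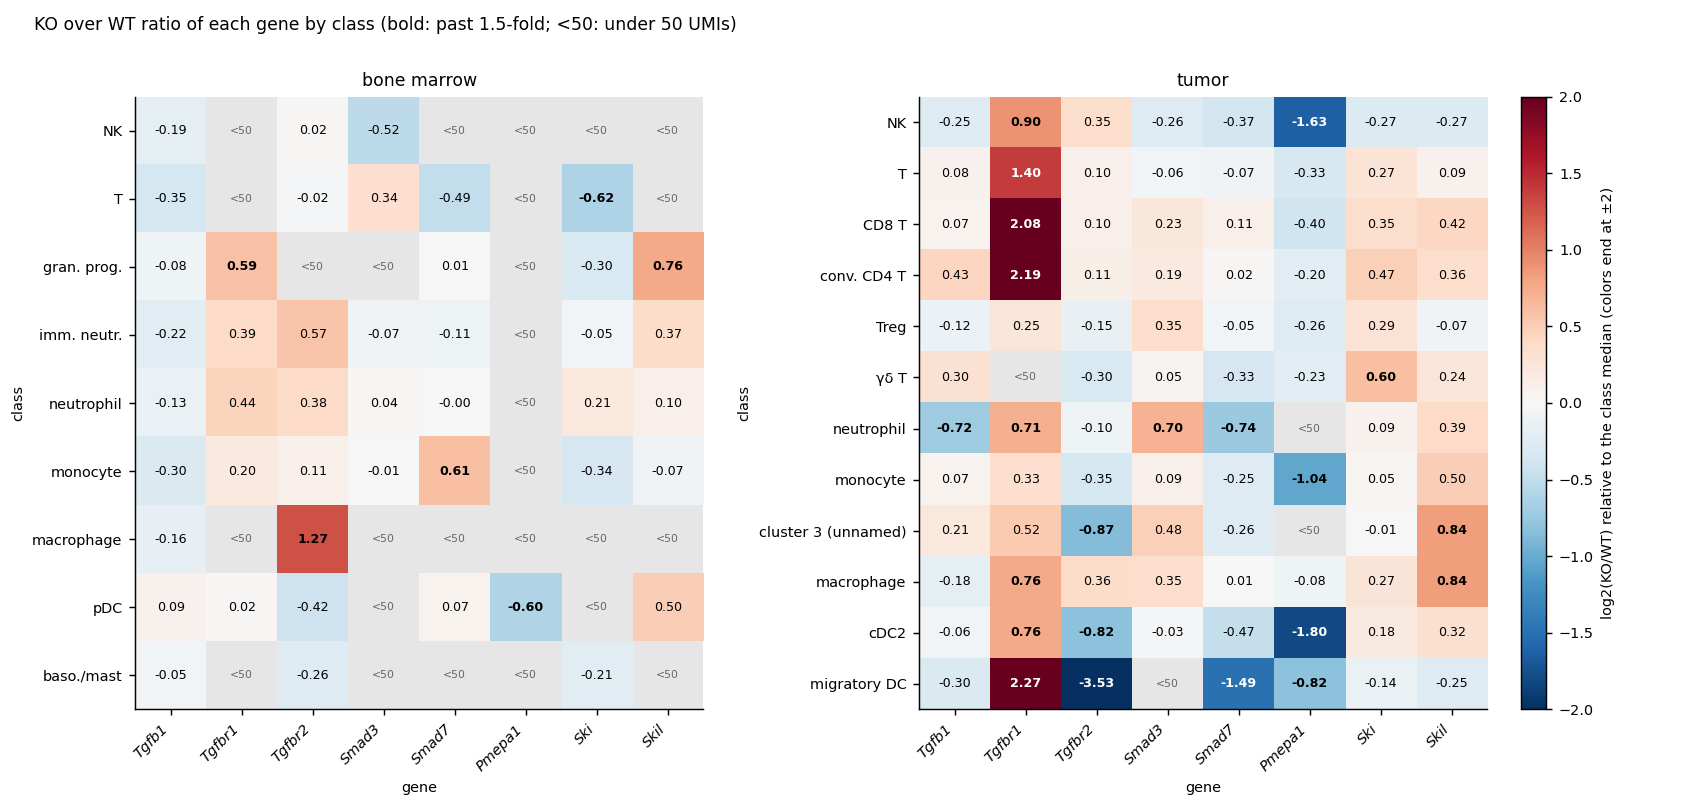
Log2 of the KO over WT ratio of each gene (columns) in each class (rows), relative to the median of all measured genes of that class, in bone marrow (left) and tumor (right); bold values are past 1.5-fold and gray cells had under 50 UMIs over both libraries. The Tgfbr1 column is above 0 in every measured tumor class, and the Pmepa1 column is below 0 in every measured class of both tissues.

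Several myeloid classes of the WT tumor library held more RNA of T cells than those of the KO library, and Tgfbr2, Smad7 and Pmepa1 each had a higher level in T cells than in the myeloid classes compared. The summed level of the 8 T cell markers was 70.7 CPM in KO migratory dendritic cells and 1233 CPM in WT ones, against 7301 CPM in KO T cells and 8824 CPM in WT T cells. It was 473.5 CPM in KO and 1235 CPM in WT cDC2, 25.7 and 253 CPM in KO and WT mature neutrophils, and 16.0 and 104 CPM in KO and WT monocytes. None of the 8 markers was at 0 UMIs in any of these classes of either library. Results in myeloid classes are therefore also given without the cells that held a UMI of a T or NK marker, an alternative chosen after the data were seen. That left 83.0% of KO and 58.1% of WT migratory dendritic cells, and 60.3% of KO and 44.8% of WT cDC2. Of the 42 pairs then measured in tumor myeloid classes, 4 were higher and 3 lower in KO, against 7 and 9 of 45 with all cells. NK and T cells were not filtered. With them the counts were 6 and 4 of 58 pairs, against 9 and 10 of 61. The share of all genes past 1.5-fold was not computed without the marker-holding cells.

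Tgfb1 encodes the TGF-beta1 ligand, the form made by most leukocytes. Its level in the tumor was highest in NK cells, at 617 CPM in the KO library and 752 CPM in the WT library, and lowest in mature neutrophils and migratory dendritic cells. Next to NK cells in KO stood gamma-delta T cells at 451.5 CPM and monocytes at 437 CPM, whose intervals overlapped, and in WT monocytes at 454 CPM and gamma-delta T cells at 374 CPM, whose intervals did not. Among 8 tumor classes, 1 passed 1.5-fold. In mature neutrophils Tgfb1 had 78.9 CPM in KO (953 UMIs) and 164.6 CPM in WT (80 UMIs), a ratio of 0.479 (0.381 to 0.610). The lower KO level was found in both neutrophil clusters, with ratios of 0.477 in cluster 11 and 0.488 in cluster 12, and without the cells holding T or NK marker UMIs the ratio was 0.484. In this class the median ratio over all genes was 0.789, so that relative to it Tgfb1 stood at 0.608, and KO neutrophils were deeper, with a median of 3796 UMIs per cell against 2417 in WT.

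In the other tumor classes the Tgfb1 ratio ran between 0.796 in migratory dendritic cells and 1.07 in T cells. Without the cells holding T or NK marker UMIs the migratory dendritic ratio was 1.28 (0.915 to 1.77). Within T cells, conventional CD4 T cells had 327 CPM in KO and 244 CPM in WT (1.34, 1.205 to 1.49), while regulatory T cells had 304 CPM in KO and 334 CPM in WT (0.911, 0.777 to 1.06). In bone marrow Tgfb1 was below the class median in 8 of 9 classes and passed 1.5-fold in none. Monocytes had 298 CPM in KO and 364 CPM in WT (0.819, 0.750 to 0.894), and immature neutrophils 83.1 CPM in KO against 99.6 CPM in WT (0.834, 0.742 to 0.938). These were the marrow classes whose Tgfb1 interval left out 1.

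**Figure D2:**
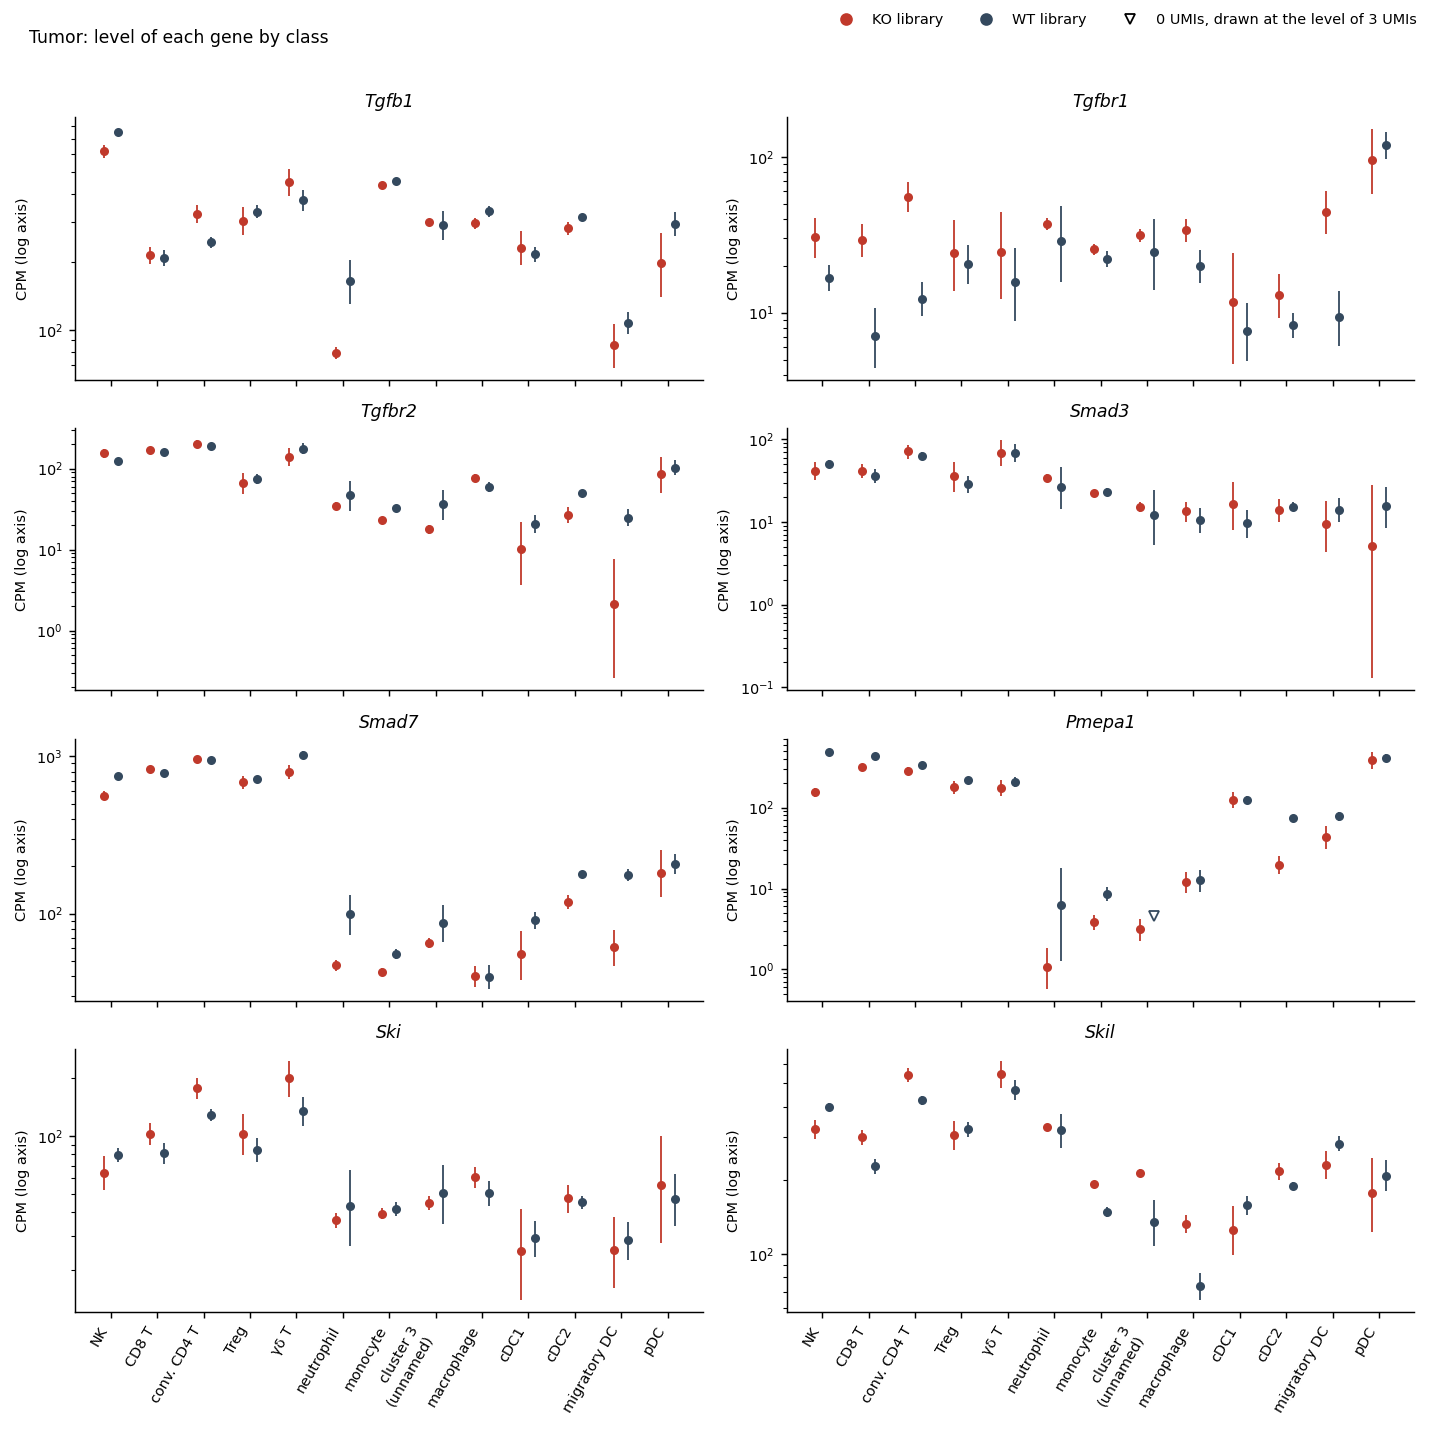
Level of each of the 8 genes in CPM (log axis) in each tumor class, with the KO library left of the WT library; points are the libraries and lines are 95% counting intervals. Tgfbr1 in conventional CD4 T cells lies at 55.4 CPM in KO against 12.3 CPM in WT, and Pmepa1 in NK cells at 155 CPM in KO against 491 CPM in WT.

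Tgfbr1 encodes the type I receptor kinase that phosphorylates SMAD2 and SMAD3, and Tgfbr2 the type II receptor that binds the ligand. Both are shown here by the 250 bases before their RefSeq start sites (GRCm38.p6). The reason was that, with all cells, their ratios went in opposite directions in migratory dendritic cells and in cDC2. Once cells holding T or NK marker UMIs were left out, Tgfbr2 in migratory dendritic cells had 1 UMI in KO and 5 in WT. That was too few to measure a ratio. The cDC2 ratio of Tgfbr2 was then 0.791 (0.544 to 1.13). Tgfbr1 there, with 21 UMIs in KO and 24 in WT, was under the minimum for a measured gene. Tgfbr1 lies on chromosome 4, 47353222 to 47414931, plus strand, and Tgfbr2 on chromosome 9, 116084293 to 116175360, minus strand (GRCm38). Capitals mark the SMAD-binding letters CAGAC or GTCTG, and the GC box letters GGGCGG or CCGCCC, each searched on both strands.
Tgfbr1, chr4:47352972-47353221, plus strand: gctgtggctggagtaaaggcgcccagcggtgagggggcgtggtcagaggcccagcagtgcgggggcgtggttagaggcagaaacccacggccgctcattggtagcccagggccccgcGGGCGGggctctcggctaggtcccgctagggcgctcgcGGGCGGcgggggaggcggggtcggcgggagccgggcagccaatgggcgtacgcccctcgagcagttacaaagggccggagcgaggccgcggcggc
Tgfbr2, chr9:116175364-116175613, minus strand: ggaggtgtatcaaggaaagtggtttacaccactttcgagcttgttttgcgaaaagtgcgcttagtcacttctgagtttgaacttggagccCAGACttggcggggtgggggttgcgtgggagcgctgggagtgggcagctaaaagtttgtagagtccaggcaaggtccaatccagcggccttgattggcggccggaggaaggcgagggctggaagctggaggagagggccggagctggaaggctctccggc
The Tgfbr1 window printed held 2 GC boxes and 0 SMAD matches at 74.8% G and C. A second RefSeq start of Tgfbr1 has the window chr4:47385966-47386215, not printed, with 0 GC boxes and 1 SMAD match at 52.8%. The Tgfbr2 window held 0 GC boxes and 1 SMAD match at 58.4%. A SMAD match was present in 42.2% and a GC box in 32.7% of 32851 windows of the same length, and the matches are letters in a window, not sites shown to be bound.

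Tgfbr1 was higher in KO in T cells as a whole and in their conventional CD4 and CD8 subsets. T cells had 35.5 CPM in KO (259 UMIs) and 13.3 CPM in WT (218 UMIs), a ratio of 2.66 (2.21 to 3.20). Conventional CD4 T cells had 55.4 CPM in KO and 12.3 CPM in WT (4.52, 3.23 to 6.35), and CD8 T cells had 29.3 CPM in KO and 7.05 CPM in WT (4.15, 2.54 to 7.04). In regulatory T cells the levels were 24.1 CPM in KO and 20.5 CPM in WT, and the interval of their ratio, 0.624 to 2.10, included 1. Gamma-delta T cells, with 11 UMIs in KO and 15 in WT, held too few to measure a ratio. The KO and WT cells of these subsets lay mostly in different clusters: 412 of 521 KO CD8 T cells were in cluster L5, and 697 of 717 WT CD8 T cells in cluster L7. Among conventional CD4 T cells, 364 of 421 KO cells were in cluster L9 and 1101 of 1510 WT cells in cluster L11.

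Tgfbr1 was also compared within single T cell clusters. The ratio was 3.81 (1.96 to 8.28) in L9, 5.19 (2.23 to 10.7) in L11 and 3.55 in the cycling cluster L1. The other clusters with a ratio given here held fewer UMIs than the minimum for a measured gene. Their ratios were 2.79 (1.08 to 6.52) in L7, on 8 UMIs in KO and 22 in WT, and 2.75 in L3, on 20 and 8. In L8 the ratio was 3.08, on 12 and 9 UMIs, and in L0 it was 1.10 (0.532 to 2.19), on 14 and 26. In L5 the KO cells held 62 Tgfbr1 UMIs and the 20 WT cells 0. With each cell thinned to 2000 UMIs, which left out 21 KO and 91 WT T cells, 4.63% of KO and 2.04% of WT T cells had a Tgfbr1 UMI, against 14.96% and 5.296% unthinned. Macrophage markers summed to 85.8 CPM in KO and 57.8 CPM in WT T cells, against 19105 CPM in KO and 13574 CPM in WT macrophages, and their part in the Tgfbr1 result was not tested.

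**Figure D3:**
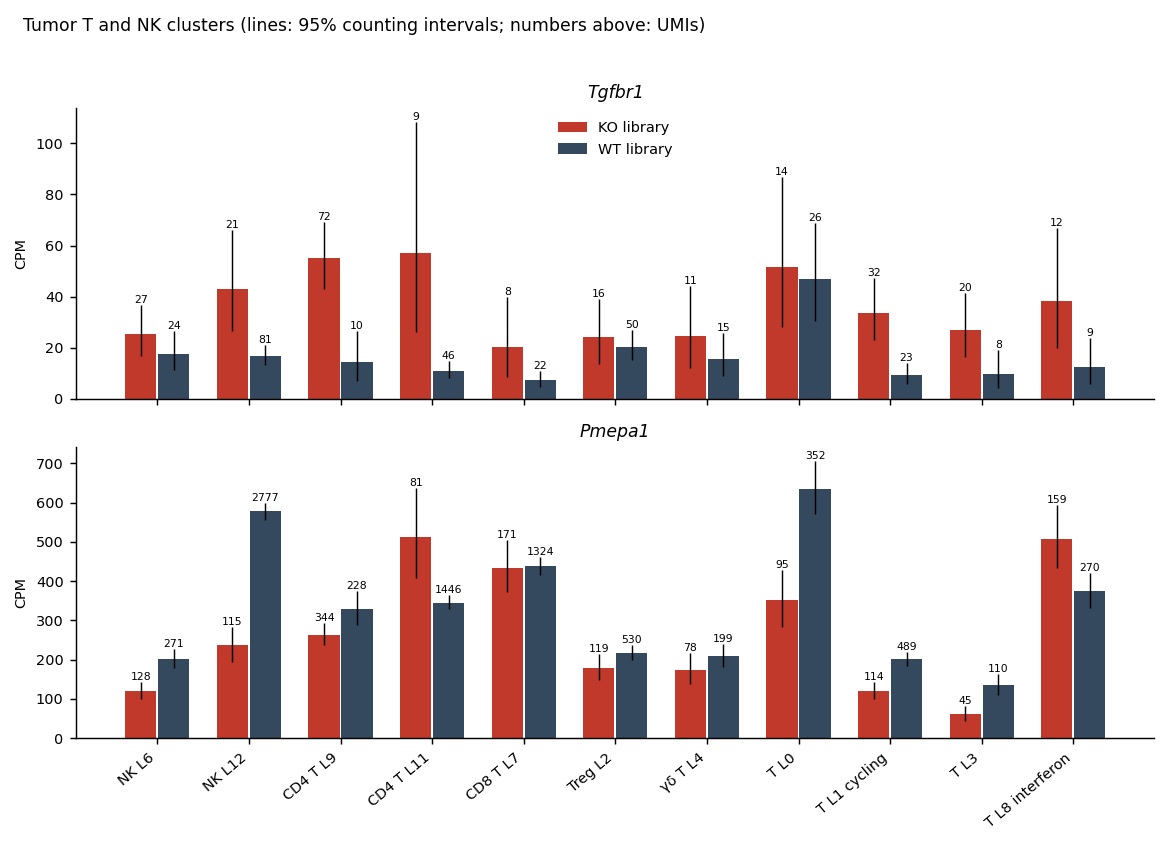
Level of Tgfbr1 (top) and Pmepa1 (bottom) in CPM within single tumor NK and T cell clusters, KO bars left of WT bars; lines are 95% counting intervals and the numbers above are UMIs. The KO bar of Tgfbr1 is above the WT bar in each cluster drawn, with ratios between 1.10 in L0 and 5.19 in L11. The clusters whose KO and WT intervals overlap include L0, L2 and L4. Pmepa1 is lower in KO in both NK clusters.

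Tgfbr1 was also higher in KO outside the T cells. NK cells had 30.6 CPM in KO and 16.8 CPM in WT (1.82, 1.27 to 2.58), macrophages 33.9 CPM in KO and 19.9 CPM in WT (1.70, 1.26 to 2.31), and cDC2 12.98 CPM in KO and 8.31 CPM in WT (1.56, 1.06 to 2.26). Migratory dendritic cells had the widest gap, 44.3 CPM in KO (42 UMIs) and 9.39 CPM in WT (26 UMIs), a ratio of 4.72 (2.83 to 8.01). Without the cells holding T or NK marker UMIs the migratory dendritic ratio was 4.55 (2.42 to 9.07). The macrophage ratio was then 1.44 (1.01 to 2.09), no longer past 1.5-fold, and cDC2 kept 21 UMIs in KO and 24 in WT, under the minimum of 50. In mature neutrophils the levels were 37.1 CPM in KO and 28.8 CPM in WT (14 UMIs), a ratio of 1.29 (0.759 to 2.37). It passed 1.5-fold relative to the class median (1.63), and in neutrophil cluster 12 alone the ratio was 0.838. Without the cells holding T or NK marker UMIs the neutrophil ratio was 1.13. Relative to the class median it was then 1.35 (0.779 to 2.55), no longer past 1.5-fold. Monocytes had 25.5 CPM in KO and 22.1 CPM in WT (1.15), and cluster 3 had 31.3 CPM in KO and 24.4 CPM in WT (1.28).

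In all 8 tumor classes Tgfbr1 stood above the class median, as did 292 of the 4605 genes measured in all 8 (6.34%). In bone marrow it stood above it in all 5 classes where it was measured, as did 445 of 4008 genes (11.1%). Mature neutrophils had 51.4 CPM in KO and 38.0 CPM in WT (1.35, 1.06 to 1.74), immature neutrophils 33.5 CPM in KO against 26.3 CPM in WT (1.27, 1.03 to 1.58), and granulocyte progenitors 29.9 CPM in KO and 20.5 CPM in WT (1.46, 0.964 to 2.25). The highest marrow level, in plasmacytoid dendritic cells, was 147 CPM in KO and 143 CPM in WT.

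Tgfbr2 had similar levels in both genotypes in the T cells, 156 CPM in KO and 145 CPM in WT (1.08, 1.00 to 1.16). NK cells had 154 CPM in KO and 124 CPM in WT (1.24, 1.07 to 1.44), above 1 but within 1.5-fold. Of the 8 classes compared in the tumor, T and NK cells held its highest levels. It was lower in KO in dendritic cells and in cluster 3. Migratory dendritic cells had 2 UMIs (2.11 CPM) in KO and 69 UMIs (24.9 CPM) in WT, a ratio of 0.0847 (0.01005 to 0.318). Without the cells holding T or NK marker UMIs, 1 UMI remained in KO and 5 in WT, too few to measure a ratio. In cDC2 the levels were 26.6 CPM in KO and 50.7 CPM in WT (0.525, 0.411 to 0.662), and without those cells 24.4 CPM in KO and 30.9 CPM in WT (0.791, 0.544 to 1.13).

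In cluster 3 Tgfbr2 had 17.9 CPM in KO and 36.7 CPM in WT (24 UMIs), a ratio of 0.489 (0.321 to 0.778). It was 0.484 (0.276 to 0.926) without the cells holding T or NK marker UMIs, with 13 UMIs left in WT. Relative to the class median it was then 0.525 (0.300 to 1.004), an interval that includes 1. Monocytes had 23.3 CPM in KO and 32.5 CPM in WT (0.717), and macrophages 75.9 CPM in KO and 58.8 CPM in WT (1.29, 1.08 to 1.55). In bone marrow the Tgfbr2 level of macrophages was 162 CPM in KO (46 UMIs) and 67.9 CPM in WT (10 UMIs), a ratio of 2.38 (1.19 to 5.30), and 1.99 (0.991 to 4.44) without the cells holding T or NK marker UMIs. Marrow mature neutrophils had 52.3 CPM in KO and 40.3 CPM in WT (1.30, 1.02 to 1.66) and immature neutrophils 13.7 CPM in KO and 9.52 CPM in WT (1.44, 1.01 to 2.08). Marrow T cells had 122 CPM in KO and 123 CPM in WT.

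Smad3 encodes the SMAD protein that the type I receptor phosphorylates and that binds DNA at target genes. It passed 1.5-fold in 1 tumor class and in 0 marrow classes. T cells had 41.8 CPM in KO and 43.3 CPM in WT (0.964, 0.8405 to 1.1045), NK cells 41.4 CPM in KO and 50.6 CPM in WT (0.818, 0.618 to 1.07), and monocytes 22.6 CPM in KO and 23.1 CPM in WT (0.977, 0.847 to 1.13). Mature neutrophils had 34.2 CPM in KO and 26.8 CPM in WT (13 UMIs), a ratio of 1.28 (0.739 to 2.42) that passed 1.5-fold only relative to the class median, and with thinned cells it lay below that median. In cDC2 it had 13.98 CPM in KO and 15.4 CPM in WT (0.908, 0.636 to 1.27), but 14.04 CPM in KO (23 UMIs) and 5.65 CPM in WT (28 UMIs) without the cells holding T or NK marker UMIs (2.48, 1.37 to 4.47). With all cells, in no class of either tissue where it was measured did the interval of Smad3 relative to the class median leave out 1. Marrow NK cells had 96.7 CPM in KO and 136 CPM in WT, on 37 and 21 UMIs.

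Smad7 encodes the inhibitory SMAD, a target gene of the pathway that blocks the type I receptor. T cells held 777 CPM in KO and 809 CPM in WT (0.9604, 0.931 to 0.991), and conventional CD4, CD8 and regulatory T cells had ratios of 1.01, 1.06 and 0.954. Gamma-delta T cells had 796 CPM in KO and 1022 CPM in WT (0.779, 0.688 to 0.8803), and NK cells 562 CPM in KO and 746 CPM in WT (0.754, 0.701 to 0.810). Both stayed within 1.5-fold. In the NK clusters taken singly the ratio was 0.862 in L6 and 0.869 in L12.

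In migratory dendritic cells, mature neutrophils, monocytes and cDC2 the Smad7 difference was smaller without the cells holding T or NK marker UMIs. In cluster 3 it was not (ratio 0.748 with all cells and 0.759 without). Migratory dendritic cells had 61.2 CPM in KO and 175.5 CPM in WT (0.349, 0.261 to 0.458), but without the cells holding T or NK marker UMIs 55.5 CPM in KO and 58.5 CPM in WT (0.949, 0.636 to 1.4). Mature neutrophils had 46.8 CPM in KO and 98.8 CPM in WT (0.474, 0.352 to 0.650), but without those cells 46.3 CPM in KO and 55.6 CPM in WT (0.833, 0.544 to 1.34). In cDC2 the levels were 118 CPM in KO and 178 CPM in WT (0.666), and 75.7 CPM in KO and 78.1 CPM in WT without those cells. Monocytes had 42.3 CPM in KO and 55.2 CPM in WT (0.767, 0.697 to 0.846). Without those cells their ratio was 0.963 (0.852 to 1.09). Macrophages had 39.8 CPM in KO and 39.5 CPM in WT, and a ratio of 1.45 (1.04 to 2.03) without those cells. In bone marrow monocytes Smad7 was higher in KO, at 23.4 CPM (91 UMIs) against 15.3 CPM in WT (39 UMIs), a ratio of 1.53 (1.04 to 2.29). The T cell markers there summed to 5.15 CPM in KO and 4.32 CPM in WT. Marrow T cells had 139 CPM of Smad7 in KO and 193 CPM in WT (0.718, 0.509 to 1.01).

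**Figure D4:**
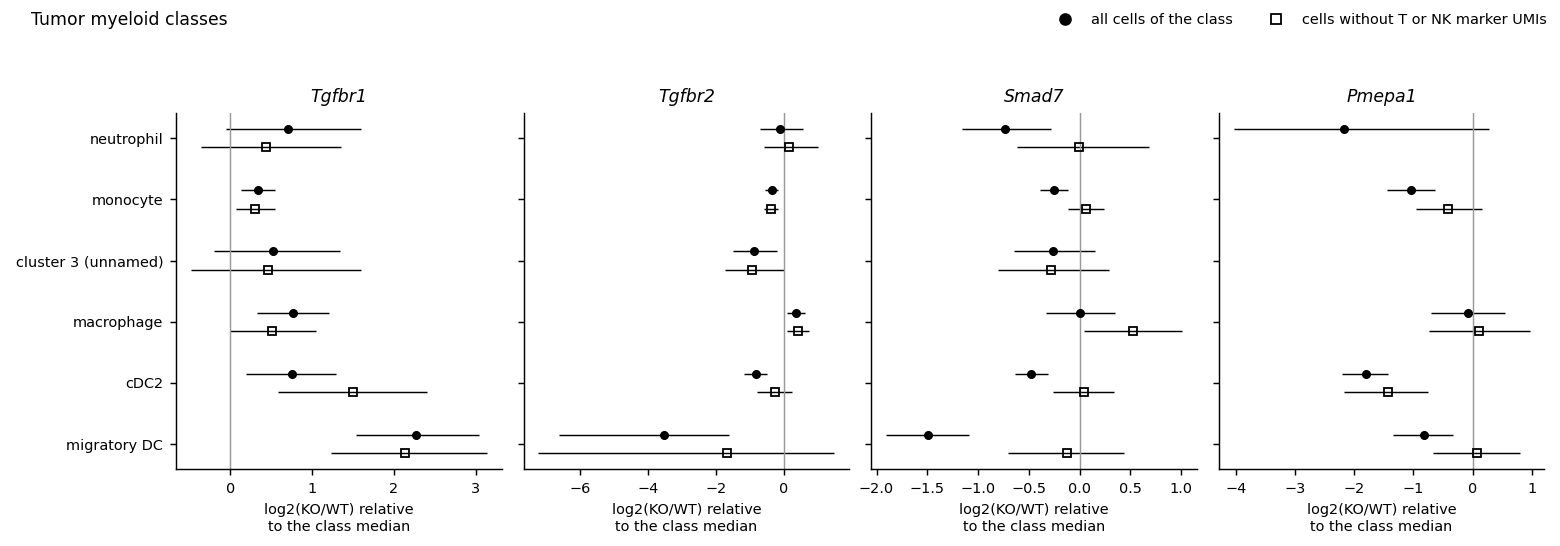
Log2 of the KO over WT ratio relative to the class median for Tgfbr1, Tgfbr2, Smad7 and Pmepa1 in tumor myeloid classes, with all cells (filled) and without the cells that held a UMI of a T or NK marker (open); lines are 95% counting intervals, and no point is drawn where a library had 0 UMIs. In migratory dendritic cells the Smad7 points lie at ratios to the class median of 0.356 with all cells and 0.917 without those cells, and the Tgfbr1 points at 4.82 and 4.399.

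Pmepa1 encodes a membrane protein that is induced by TGF-beta and limits it by keeping receptor-activated SMADs from the receptor. Of the 8 genes, it had the lowest KO over WT ratio in tumor NK cells and in tumor T cells. NK cells had 155 CPM in KO (243 UMIs) and 491 CPM in WT (3278 UMIs), a ratio of 0.315 (0.276 to 0.359), that is 3.17-fold lower in KO. KO NK cells lay mostly in cluster L6 (126 of 220) and WT NK cells in cluster L12 (1244 of 1655). The difference was smaller within each, with 120 CPM in KO and 201 CPM in WT in L6 (0.598, 0.481 to 0.741) and 236 CPM in KO and 578 CPM in WT in L12 (0.409, 0.336 to 0.492).

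The cell depths ran the other way, with a median of 9947.5 UMIs per KO NK cell and 5320 per WT NK cell. Thinned to 2000 UMIs per cell, which left out 1 KO and 27 WT NK cells, 18.7% (13.8 to 24.5) of KO and 43.9% (41.4 to 46.3) of WT NK cells had a Pmepa1 UMI, against 45% of KO and 66.3% of WT NK cells unthinned. In monocytes, whose Pmepa1 level was 3.83 CPM in KO and 8.61 CPM in WT, the thinned share was 0.577% in KO and 0.596% in WT, at median depths of 10358.5 UMIs in KO and 8022 in WT. T cell markers summed to 765 CPM in KO and 741 CPM in WT NK cells, and NK markers to 10130 CPM in KO and 13985 CPM in WT.

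T cells as a whole had 248 CPM of Pmepa1 in KO and 310 CPM in WT (0.802, 0.7597 to 0.846), and the clusters differed among themselves. The ratio was 0.552 in L0, 0.594 in L1 and 0.451 in L3, with intervals below 1. It was 0.992 in the CD8 cluster L7, and above 1 in L11 (1.49, 1.17 to 1.86) and L8 (1.36, 1.11 to 1.66). CD8 T cells had 321 CPM in KO and 431 CPM in WT (0.745), and regulatory T cells 179 CPM in KO and 217 CPM in WT (0.824, 0.670 to 1.01).

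In cDC2 Pmepa1 had 19.6 CPM in KO and 74.0 CPM in WT (0.265, 0.201 to 0.345), with ratios of 0.385 in cluster 5 and 0.358 in cluster 18, and 0.350 (0.208 to 0.557) without the cells holding T or NK marker UMIs. In migratory dendritic cells the levels were 43.2 CPM in KO and 78.0 CPM in WT (0.554), and without those cells 36.1 CPM in KO and 33.2 CPM in WT (1.09, 0.650 to 1.80). In monocytes they were 3.83 CPM in KO and 8.61 CPM in WT (0.445), and without those cells the ratio was 0.696 (0.475 to 1.03). Conventional type 1 dendritic cells, with 45 KO cells too few to compare, held 125 CPM in KO and 126 CPM in WT. In bone marrow Pmepa1 was measured in plasmacytoid dendritic cells alone, at 99.9 CPM in KO against 149 CPM in WT (0.669, 0.469 to 0.952). Without the cells holding T or NK marker UMIs the ratio was 0.693 (0.477 to 1.005). Relative to the class median it was then 0.683, no longer past 1.5-fold. Granulocyte progenitors of both marrow libraries held 0 Pmepa1 UMIs, which with 3 UMIs as the limit allowed up to 1.13 CPM in KO and 1.81 CPM in WT.

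**Figure D5:**
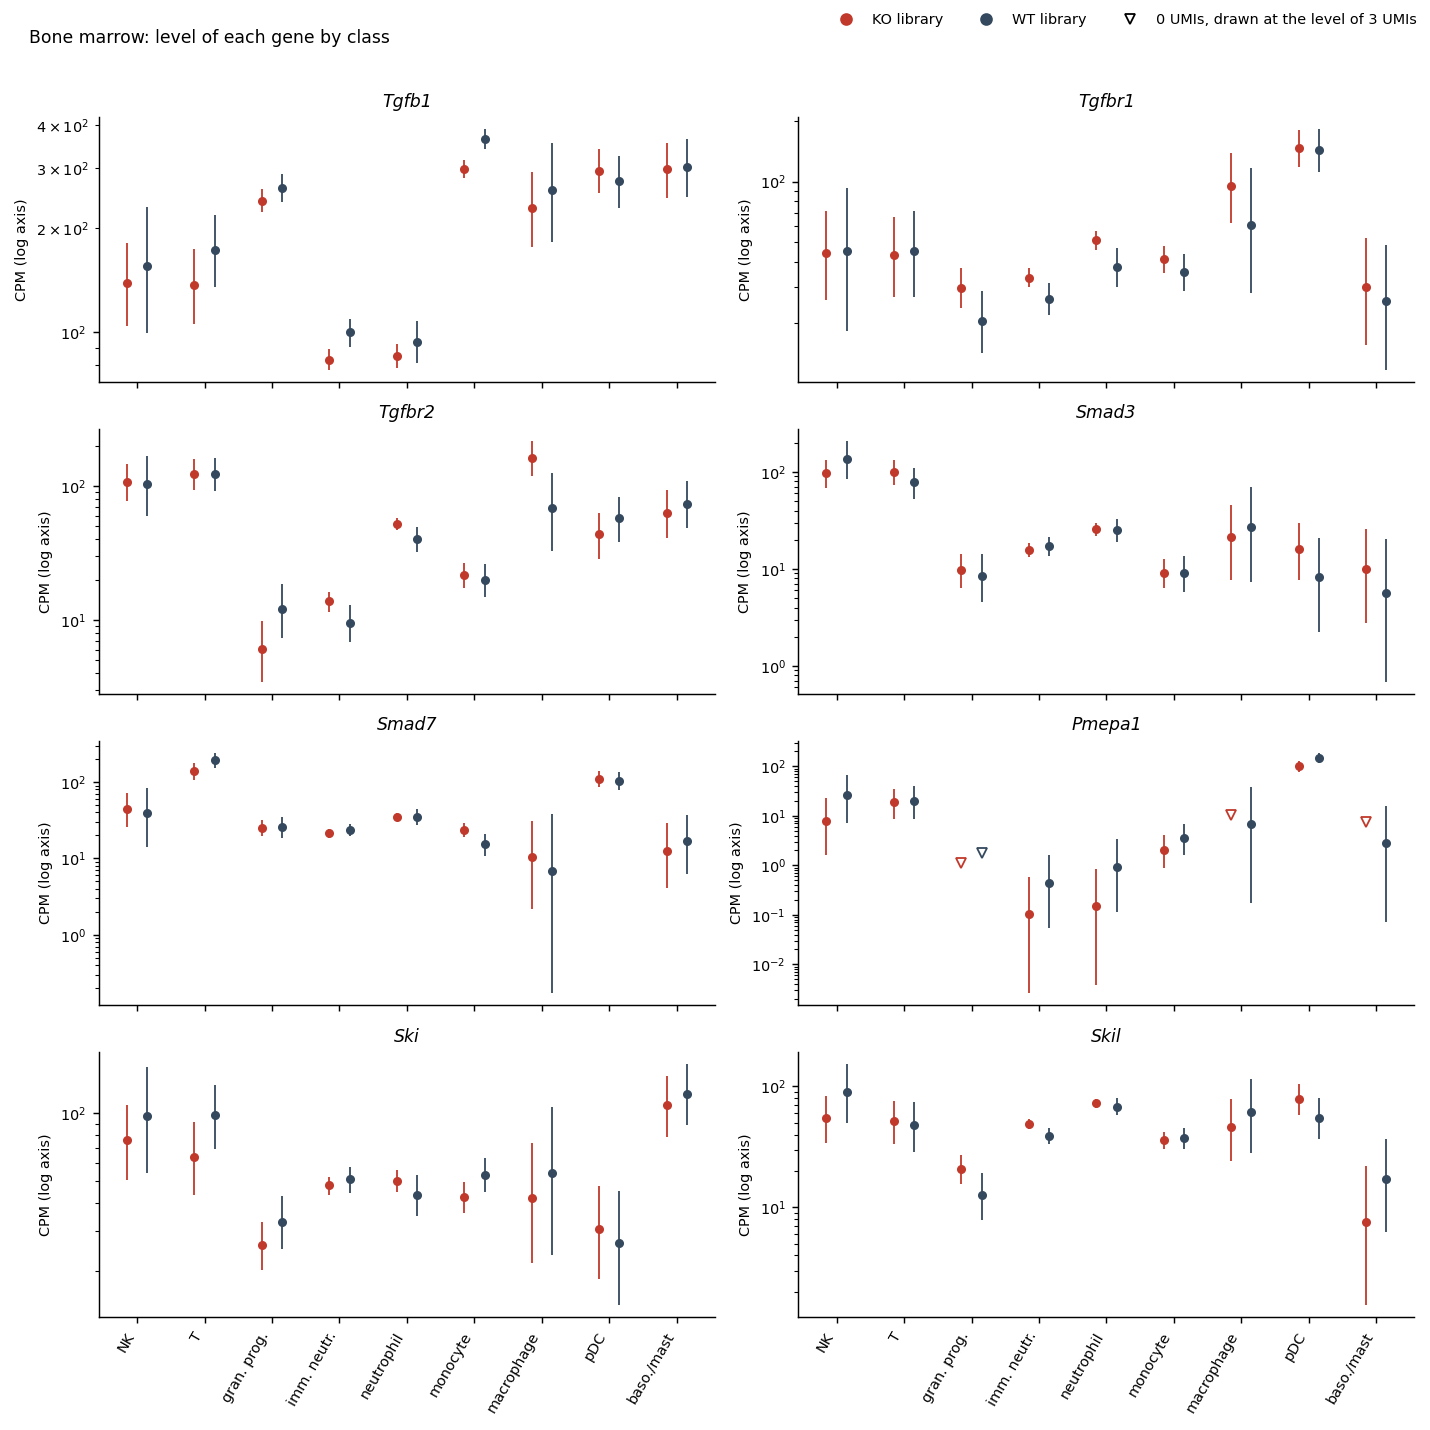
Level of each of the 8 genes in CPM (log axis) in each bone marrow class, with the KO library left of the WT library; points are the libraries, lines are 95% counting intervals, and open triangles mark 0 UMIs, drawn at the level of 3 UMIs. Tgfbr2 in macrophages lies at 162 CPM in KO against 67.9 CPM in WT, and their intervals overlap slightly.

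Ski and Skil encode SKI and SnoN, nuclear proteins that bind SMADs and repress their target genes; Skil is itself a target gene of the pathway. Skil was higher in KO in tumor macrophages, at 132 CPM in KO against 73.8 CPM in WT (1.79, 1.54 to 2.09), and in cluster 3, at 215 CPM in KO against 134 CPM in WT (1.60, 1.29 to 2.00). Without the cells holding T or NK marker UMIs these ratios were 1.94 and 1.63. Monocytes had 192 CPM in KO and 149 CPM in WT (1.29, 1.23 to 1.36), with ratios of 1.502 in cluster 0, 1.52 in cluster 1 and 1.22 in cluster 9. In the lymphocytes Skil had 359 CPM in KO and 335 CPM in WT T cells, and 323 CPM in KO and 399 CPM in WT NK cells (0.809, 0.735 to 0.890). The level in mature neutrophils was 331 CPM in KO and 321 CPM in WT.

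In bone marrow Skil was higher in KO granulocyte progenitors, at 20.8 CPM (55 UMIs) against 12.6 CPM in WT (21 UMIs), a ratio of 1.64 (0.978 to 2.86). Immature neutrophils had 48.9 CPM in KO and 39.0 CPM in WT (1.26, 1.05 to 1.501). Ski stayed within 1.5-fold in all 8 tumor classes. Its T cell level was 116 CPM in KO and 95.5 CPM in WT (1.22, 1.12 to 1.32), with 177 CPM in KO and 128 CPM in WT conventional CD4 T cells (1.38, 1.19 to 1.59) and 199 CPM in KO and 134 CPM in WT gamma-delta T cells (1.48, 1.12 to 1.96). The gamma-delta ratio passed 1.5-fold relative to its class median, at 1.51. In marrow T cells Ski had 64.2 CPM in KO and 97.9 CPM in WT (0.656, 0.395 to 1.08).

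The list of other pathway genes held 60. In the tumor, of 292 gene and class pairs measured over the 8 classes, 66 were higher and 16 lower in KO, where 9.96% to 46.8% of all genes passed 1.5-fold either way. In bone marrow, with 59 of the genes present, 17 of 173 pairs over 9 classes were higher and 3 lower, where 5.64% to 18.9% of all genes passed. Among the ligands and proteins that release TGF-beta, Thbs1, which encodes thrombospondin 1, an activator of latent TGF-beta, had 9166 CPM in KO and 3714 CPM in WT monocytes (2.47, 2.44 to 2.49). Thbs1 also had 144 CPM in KO and 17.9 CPM in WT T cells, and 109 CPM in KO and 19.8 CPM in WT NK cells, both low beside its level in monocytes. Inhba, which encodes the activin A subunit, had 376.5 CPM in KO and 136 CPM in WT monocytes (2.76) and 117 CPM in KO and 29.6 CPM in WT macrophages (3.94). Itgb8, a subunit of the integrin that releases TGF-beta on regulatory T cells, was lower there, at 51.2 CPM in KO against 97.7 CPM in WT (0.524, 0.355 to 0.753).

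Among the receptors 0 of 7 passed 1.5-fold in tumor monocytes, beside 17.4% of all genes, and in macrophages 2 of 7 were higher and 1 lower, beside 12.8%. Of the other SMADs and their nuclear partners, 0 of 7 passed in NK cells, beside 14.5% of all genes, and 0 of 7 in T cells, beside 9.96%. Of the turnover factors, 0 of 10 passed in NK cells and 0 of 10 in T cells. Of the target genes, 5 of 11 were higher in T cells, and in NK cells 2 of 8 were higher and 1 lower, beside the same shares of all genes. Cdkn1a, which encodes the cell cycle inhibitor p21, had 97.8 CPM in KO and 43.6 CPM in WT CD8 T cells (2.24, 1.81 to 2.79), and Bhlhe40, a transcription factor gene of activated T cells, 618 CPM in KO and 327 CPM in WT (1.89, 1.75 to 2.05). Itga1, which encodes an integrin subunit of tissue-resident lymphocytes, had 59.3 CPM in KO and 32.9 CPM in WT NK cells (1.80) and 33.7 CPM in KO and 67.1 CPM in WT conventional CD4 T cells (0.501). KO and WT cells of CD8 T, conventional CD4 T and NK cells lay mostly in different clusters, as given above. Cdkn1a, Bhlhe40 and Itga1 were not compared within single clusters. In the marrow, Acvrl1, which encodes the type I receptor ALK1, had 157 CPM in KO immature neutrophils and 87.2 CPM in WT ones (1.80, 1.61 to 2.02), and Tgfbi, a target gene, 85.5 CPM in KO and 52.9 CPM in WT (1.62, 1.397 to 1.87).

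For each of the 8 genes, the gene whose log2 level ran most like it was sought over 24 tumor values, those of 12 classes in both libraries, among 9234 genes. These values share libraries, and the correlations are a description. The closest gene was Nme1 for Tgfb1 (Pearson r = 0.86), Mroh1 for Tgfbr1 (0.76), Kdsr for Tgfbr2 (0.92), Acpp for Smad3 (0.90), Zbtb25 for Smad7 (0.97), Irf2bp1 for Pmepa1 (0.95), Ppp1cc for Ski (0.94) and Ddx5 for Skil (0.92). Tgfbr1 had the lowest best match of the 8 genes.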

How the data were processed

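The deposited values are raw counts of UMIs for every gene and cell barcode. Per the file headers, Cell Ranger 3.1.0 made the bone marrow matrices and 6.0.2 those of the tumor, while the notes of the submitters on processing list Cell Ranger 6.1.2, Seurat 4.3.0 and R 4.2.1, with builds mm10 and GRCm38. Tissues were analysed separately because these versions differ. No barcode had fewer than 500 UMIs. Pairs of libraries shared 21 to 46 barcodes (at most 0.416%), which were kept.

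Barcodes needed 200 genes and no more than 10% mitochondrial UMIs. The automatic doublet threshold marked 0% to 7.98% of barcodes, so the highest-scoring barcodes were removed at 0.8% per 1000 barcodes in every library (6.50% to 9.62%), a rule chosen after the data were seen. Clustering used scanpy 1.11.5 (2000 variable genes, 30 components, 15 neighbors, Leiden resolution 1), and 25 marker lists gave the names. Classes with 50 cells or more in both libraries were compared by the ratio of summed CPM with an exact 95% interval, whose code was tested on simulated data.

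The 8 genes, the other pathway genes and the marker lists were chosen with earlier results of these data known. Up to 4 other pathway genes per class could be named, largest change first, with at least 100 UMIs, past 1.5-fold and an interval leaving out 1. Alternatives varied the total, the UMI minimum, the fold, thinning, the doublet and mitochondrial filters and the resolution. Promoter windows came from RefSeq, whose table held 5 of the 8 genes, and gene positions from GENCODE on GRCm38.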

Additional observations from a re-analysis of the deposited data

Results flagged for a closer look

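In monocytes 2 of the genes lay on opposite sides of their class median in the 2 tissues, with an interval that left out 1 in each. The ratio of Tgfb1 to the class median was 0.814 in bone marrow and 1.05 in the tumor. The tumor ratio before division by the class median was 0.962, below 1 as in bone marrow, and without the tumor monocytes that held T or NK marker UMIs the ratio to the class median was 1.02 (0.985 to 1.06), an interval that includes 1. The ratio of Smad7 to the class median was 1.52 in bone marrow and 0.838 in the tumor, and without the tumor monocytes that held T or NK marker UMIs it was 1.04 there. The difference between the tissues was not tested, since each group was 1 library and the marrow came from tumor-free mice.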

How the results depend on the processing

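No paired analysis was possible because each group was 1 library. Over all alternatives, 254 values of called gene and class pairs were recomputed; 238 stayed within their counting interval, 13 left it in the same direction and 3 changed direction. On the log2 scale relative to the class median, those 3 were Pmepa1 in migratory dendritic cells at 0.074 without cells holding T or NK marker UMIs, Smad3 in tumor neutrophils at -0.23 with thinned cells, and Tgfbr1 in tumor neutrophils at -0.013 without the most unequal cluster. Beyond that left-out cluster and those left-out cells, the cause was not tested. The minimums of 10 and 200 UMIs leave the counts of a pair unchanged and shift only the class median. All 28 and all 16 of their values stayed within, which says little about stability. The same holds for all UMIs as the total and for size factors from the median ratio over genes. Both keep the counts of a pair and only rescale them. That all 28 values of each stayed within was therefore close to fixed beforehand. The 238 values include all of these. Without cells holding T or NK marker UMIs 14 of 19 values stayed within, and without the most unequal cluster 8 of 13.

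Of the 8 genes in the tumor, pairs higher in KO (9) became 4 with at least 200 UMIs, 2 past 2-fold, 3 with thinned cells and 6 without cells holding T or NK marker UMIs, and pairs lower (10) became 5 past 2-fold, 5 thinned and 4 without those cells. In bone marrow, pairs higher (4) became 9 with all UMIs as the total, 0 with at least 200 UMIs, 1 past 2-fold, 2 with doublets kept and 2 at resolution 2. Pairs lower there (2) became 5 with at least 10 UMIs, 4 as a mean over cells, 1 with all UMIs as the total, thinned cells, doublets kept, at most 5% mitochondrial UMIs or no cells holding T or NK marker UMIs, and 0 with at least 200 UMIs, past 2-fold or at resolution 2.

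Of the other pathway genes, tumor pairs higher (66) became 43 with at least 200 UMIs and 33 past 2-fold, and pairs lower (16) became 29 with all UMIs as the total, 6 with at least 200, 31 with at least 10 and 7 past 2-fold. Marrow pairs higher (17) became 7 with at least 200 UMIs, 42 with at least 10, 2 past 2-fold and 9 thinned. Marrow pairs lower (3) became 0 with at least 200 or past 2-fold, 25 with at least 10, 6 as a mean over cells or without cells holding T or NK marker UMIs, 10 with doublets kept and 5 without the most unequal cluster. The cause was not tested, apart from the fewer or more genes that a UMI minimum or fold admits. Cluster 3 gave no value at resolution 2.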
